A study of Mus musculus with 9 samples.

Results

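Genes of programmed cell death were followed in the border of a mouse heart infarct after injection of stem-cell-derived cardiomyocytes or of their exosomes. The set named 36 genes of the BCL2 family, the caspases and their regulators, the death receptors and necroptosis. Of these, 34 had a row in the deposited value table, out of 19505 genes measured, and each of the 34 had a single row. Bax and Ripk1 were not analysed here. By textbook role, 8 of the 34 oppose cell death (Bcl2, Bcl2l1, Bcl2l2, Mcl1, Xiap, Birc2, Birc3 and Cflar) and 26 promote or carry it out. A few of the 26 also have other roles: Cycs encodes cytochrome c of the respiratory chain, Aifm1 a mitochondrial flavoprotein needed for respiration, and Casp1 an inflammatory caspase.

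The 3 groups were hearts injected with exosomes, small secreted vesicles, precipitated from cardiomyocytes in culture (iCM-Ex), hearts injected with the cardiomyocytes themselves (iCM), which had been made from induced pluripotent stem cells and grown until they beat, and hearts injected with saline. All mice were female SCID animals of 80 to 100 days, a strain without functional T and B lymphocytes, and all had an infarct made by ligation of the left anterior descending coronary artery. Tissue from the border of the infarct was taken after 4 weeks, with the infarct core and the remote wall removed. Each group had 3 biological replicates on 3 arrays (9 in total), and this small number sets the precision. The species of the stem cells is not given in the sources used here.

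Mitochondrial apoptosis is decided among members of the BCL2 family. Anti-death members such as BCL2 and MCL1 hold back the pore-forming effectors BAX and BAK, and BH3-only proteins release that brake. BOK is an effector known to act largely outside that control. Open mitochondria shed cytochrome c, which assembles APAF1 and the initiator caspase-9, and SMAC (gene Diablo), which displaces the inhibitor of apoptosis proteins. Death receptors instead recruit FADD and caspase-8, a step that the caspase-8 relative cFLIP (gene Cflar) restrains. Where caspase-8 is blocked, RIPK3 and MLKL can open the plasma membrane, which is called necroptosis. In the infarcted heart these routes are known for the loss of cardiomyocytes.

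The labelled tissue was checked against marker genes. All 8 cardiomyocyte markers lay above the median negative control probe set of their own array. The mean of 7 lymphocyte markers was 4.15 to 4.67, below the lowest median negative control of 4.76. Cd4 among them lay above its own array's control on 3 iCM-Ex, 2 iCM and 2 saline arrays. Ncr1 did so on 2, 1 and 1 and Cd8a on 1, 0 and 1, and the remaining lymphocyte markers on none. Some arrays also carried RNA of other tissues. The mean of 6 lung markers was 9.58 for iCM-Ex replicate 3 and 13.25 for iCM replicate 1, while the remaining arrays had 4.29 to 6.38. Among those, Sftpc was at 11.02 and 6.83 in iCM replicates 2 and 3, against 4.82 to 5.96 in iCM-Ex replicates 1 and 2 and saline. Sftpa1 and Sftpd were likewise higher in these 2 iCM arrays, while Sftpb, Scgb1a1 and Ager were not. For iCM replicate 2 the mean of 8 skeletal muscle markers was 14.04 and that of 6 fat markers 11.18, and the muscle mean was at most 8.03 elsewhere. Acta1 and Ckm of the muscle list were high on every array, at 15.69 or more and 10.31 or more. Alas2, the only erythroid marker measured, was at 7.67, 12.87 and 9.96 in iCM-Ex. It was at 6.83, 9.68 and 7.07 in iCM and 5.86 to 7.83 in saline. The fit without the 3 arrays high in lung, muscle or fat markers kept iCM-Ex replicate 2, where Alas2 was highest. Control separation, the median of positive minus that of negative controls, was 3.63 to 4.01 in iCM-Ex, 2.47 to 3.21 in iCM and 3.26 to 3.56 in saline. The part of these markers and of control separation in the values below was not tested beyond the fits that leave arrays out or take control separation as a covariate. Control separation did not overlap between the 3 groups, so a fit with it as a covariate cannot separate it from the treatment. In a dissected piece of tissue, fewer cells of a type and less RNA per cell cannot be told apart.

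Of the 34 cell death genes, 1 passed the test. Xiap, which encodes the inhibitor that binds and blocks active caspases, rose in iCM hearts relative to saline. This was 1 of 34 genes in a comparison in which 3.67% of all genes were called, 1.34% higher and 2.33% lower. In iCM-Ex against saline 0 of 34 were called (0.349% of all genes), and in iCM-Ex against iCM 0 of 34 (1.07%). The test was limma's moderated test over all 9 arrays, two-sided, with Benjamini-Hochberg adjustment over the 19505 genes and a threshold of 0.05. At an unadjusted p of 0.05, 8 of 34 genes passed in iCM-Ex against saline (15.2% of all genes), 12 in iCM against saline (20.5%) and 4 in iCM-Ex against iCM (14.5%). Group means were higher for 21 of 34 genes in iCM-Ex against saline (53.5% of all genes), 19 in iCM against saline (55.5%) and 21 in iCM-Ex against iCM (46.1%). A difference of at least 2-fold in either direction was seen for 5 of 34 genes in iCM-Ex against saline (12.8% of all genes), 9 in iCM against saline (17%) and 5 in iCM-Ex against iCM (13.5%). With 3 arrays a group the intervals were wide, and a gene that missed the threshold is not thereby shown to be alike in the groups. Both comparisons with saline use the same saline arrays. Values below are deposited log2 signals, and changes are differences of group means with their moderated standard error (SE).

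**Figure D1:**
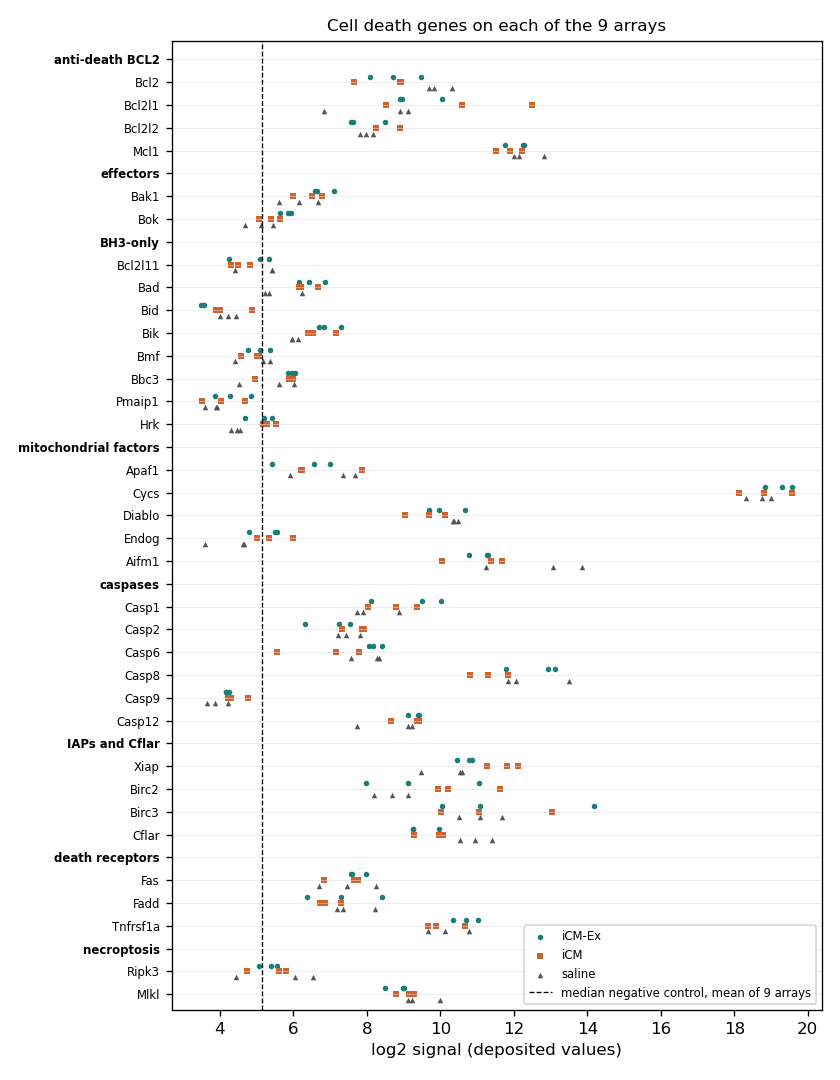
Log2 signal of the 34 cell death genes on each array (horizontal axis), by role, with iCM-Ex as circles, iCM as squares and saline as triangles, 3 arrays each. The dashed line is the median negative control averaged over the arrays. Most genes show overlapping groups, while all iCM squares of Xiap lie to the right of the saline triangles, and all iCM-Ex and iCM points of Cflar and Bcl2 lie to the left of theirs.

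The inhibitors of caspases held the gene that passed. Xiap had log2 signals of 12.11, 11.82 and 11.26 in iCM hearts, against 9.47, 10.53 and 10.60 in saline hearts. Every iCM array lay above every saline array. Xiap rose by 1.53 ± 0.37 (SE), a 2.88-fold difference, with a limma adjusted p of 0.0498 and a 95% interval of 0.71 to 2.34. That call stood at the edge of the threshold. The adjusted p was 0.0151 under quantile normalisation, and it missed the threshold whichever of the 9 arrays was left out (0.0517 to 0.137), with a difference of 1.16 to 1.76. Without the 3 arrays in which lung, muscle or fat markers were high the difference was 1.06 (adjusted p = 0.477), with iCM replicate 3 as the single iCM array. In iCM-Ex hearts Xiap was at 10.77, 10.87 and 10.46, below every iCM array and overlapping saline. The difference of iCM-Ex from iCM was −1.03 ± 0.37 (limma adjusted p = 0.215; −0.44 without the 3 arrays), and that from saline was 0.50 ± 0.37 (adjusted p = 0.573).

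The promoter of Xiap is shown because it is the gene that passed, beside those of Cflar and Bcl2, whose arrays lay below saline after both treatments. The RefSeq table (GRCm38.p6) gives 3 starts for Xiap, of which the first listed is printed, and 1 each for Cflar and Bcl2. Each stretch runs from 250 bases before to 50 bases after the start, 5′ to 3′ on the gene's strand, and capitals mark matches to the motifs described below.
Xiap, chrX:42068148-42068447, plus strand: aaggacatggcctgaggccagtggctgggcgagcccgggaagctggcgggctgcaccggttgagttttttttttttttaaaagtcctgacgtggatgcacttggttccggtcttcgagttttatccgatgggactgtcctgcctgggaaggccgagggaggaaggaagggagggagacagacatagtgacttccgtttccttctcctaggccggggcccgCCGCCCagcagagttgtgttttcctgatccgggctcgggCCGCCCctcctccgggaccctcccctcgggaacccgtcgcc
Cflar, chr1:58711241-58711540, plus strand: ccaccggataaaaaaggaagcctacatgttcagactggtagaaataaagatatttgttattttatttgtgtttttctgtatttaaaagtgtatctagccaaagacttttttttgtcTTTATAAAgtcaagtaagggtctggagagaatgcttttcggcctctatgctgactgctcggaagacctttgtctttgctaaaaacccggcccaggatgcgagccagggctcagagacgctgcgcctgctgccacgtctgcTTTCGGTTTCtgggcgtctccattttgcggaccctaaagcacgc
Bcl2, chr1:106714241-106714540, minus strand: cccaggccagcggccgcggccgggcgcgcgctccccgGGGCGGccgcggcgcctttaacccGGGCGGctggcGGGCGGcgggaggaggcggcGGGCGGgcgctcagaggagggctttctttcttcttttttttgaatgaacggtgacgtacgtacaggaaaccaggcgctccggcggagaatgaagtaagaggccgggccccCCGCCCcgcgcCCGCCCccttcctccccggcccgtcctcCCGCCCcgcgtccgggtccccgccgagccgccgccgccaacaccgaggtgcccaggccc
The motifs searched on both strands were a form of the NF-kappaB site (GGG, any 2 bases, TTTCC), the interferon response element (GAAA, any 2 bases, GAAA), the STAT site (TTC, any 3 bases, GAA), GGGCGG (the GC box), CCAAT and TATAAA. The Cflar stretch held 1 match to the interferon response element, written TTTCGGTTTC on this strand and starting 6 bases after the start, which 3.44% of all 32851 promoters hold. It also held 2 overlapping TATAAA matches, as do 13.6% of promoters with at least 1. Bcl2 held 7 GC boxes and Xiap 2, and 35.7% of all promoters hold at least 1. The GC content was 76.0% for Bcl2, 61.7% for Xiap and 45.0% for Cflar, beside a median of 52.7% over all promoters. Of the 34 measured members, Bik had no promoter entry. Another was left out of the search, although the shares over all promoters were not cut to match. The promoters of the other 32 measured members were searched. Of these members, 22 had a GC box at 1 start or more, 12 had CCAAT and 3 the STAT site. The NF-kappaB form stood in 3 (Bbc3, Bcl2l1 and Mcl1), TATAAA in 2 and the interferon response element in 1. These members had 43 promoters. Of those, 26 held a GC box, 14 CCAAT, 3 the STAT site, 3 the NF-kappaB form, 2 TATAAA and 1 the interferon response element. At least 1 match stood in 37.4% of all promoters for CCAAT, 8.3% for the STAT site and 1.63% for the NF-kappaB form. The shares of all promoters compare with the counts out of 43, not with those out of 32. A match describes letters in this window.

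Cflar, which encodes cFLIP, the restraint on caspase-8, had log2 signals of 9.25, 9.96 and 9.25 in iCM-Ex hearts, 9.97, 10.06 and 9.28 in iCM hearts and 10.53, 10.93 and 11.41 in saline hearts. All arrays of both treatments lay below all saline arrays. The difference from saline was −1.47 ± 0.35 in iCM-Ex (limma adjusted p = 0.102) and −1.19 ± 0.35 in iCM (adjusted p = 0.0907), and neither passed. The 95% intervals were −2.25 to −0.69 and −1.97 to −0.41. Cflar had the smallest p of the 34 genes in iCM-Ex against saline. Whichever array was left out, the difference stayed between −1.71 and −1.25 in iCM-Ex and between −1.40 and −0.94 in iCM.

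Birc2 and Birc3 encode cIAP1 and cIAP2, ubiquitin ligases that act at the TNF receptor complex and hold back caspase-8 and RIPK3. Birc2 was at 11.06, 9.11 and 7.98 in iCM-Ex hearts, 9.94, 11.62 and 10.22 in iCM hearts and 8.21, 9.13 and 8.67 in saline hearts. The iCM arrays lay above saline (difference 1.92 ± 0.71, limma adjusted p = 0.157; 1.09 where the covariate was control separation), while the iCM-Ex arrays spread over more than the range of both other groups' means. Birc3 was at 14.18, 11.08 and 10.06 in iCM-Ex, 11.05, 13.03 and 10.01 in iCM and 10.52, 11.09 and 11.69 in saline, and its groups overlapped. Both genes were highest of their group in iCM-Ex replicate 1 and iCM replicate 2. Their standard deviations within groups were 1.07 for Birc2 and 1.56 for Birc3, beside a median of 0.45 over all genes. The inflammasome sensor gene Nlrp3, named after its values were seen, was also highest in iCM-Ex replicate 1, at 6.88 against 4.13 and 3.96 in the other iCM-Ex hearts. Within iCM, Nlrp3 was highest in replicate 1 (5.62) and not in replicate 2 (4.88). The inflammasome genes Casp1 and Pycard went the other way in iCM-Ex replicate 1, at 8.12 and 4.84, the lowest of their iCM-Ex arrays.

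**Figure D2:**
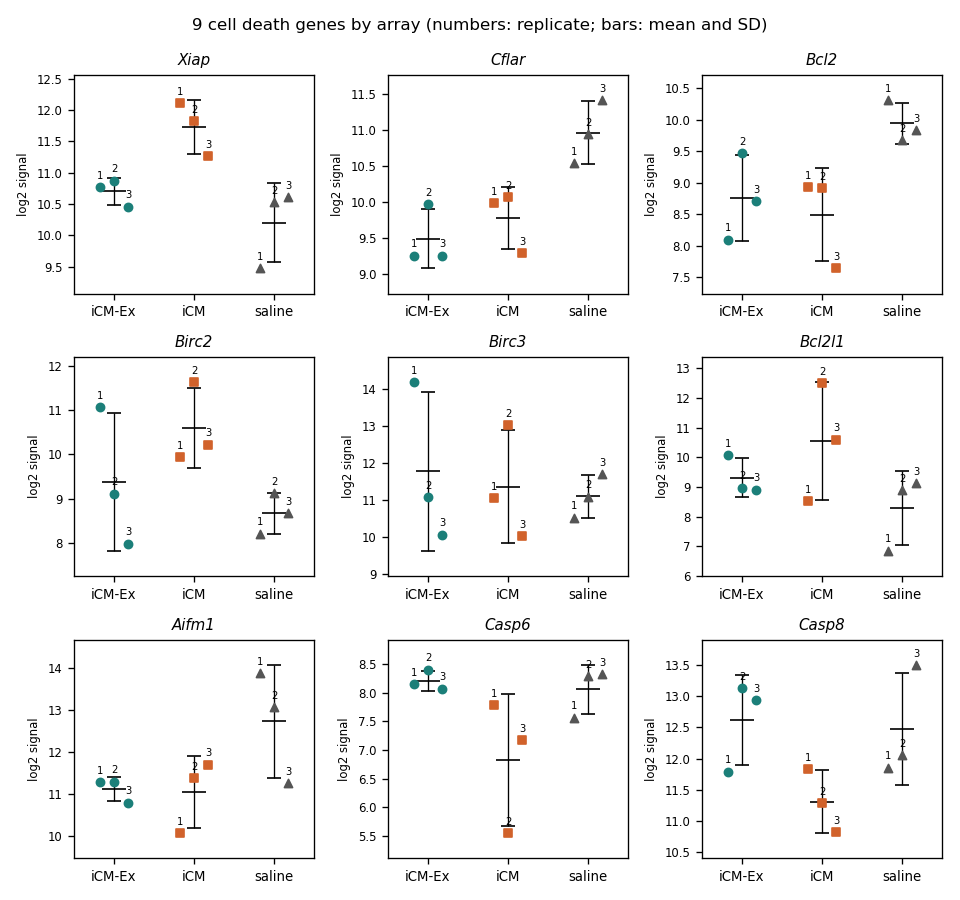
Log2 signal (vertical axes, each with its own range) of 9 cell death genes on each array, with the replicate number beside each point and the group mean and SD as bars (n = 3). Xiap is highest in iCM, Cflar and Bcl2 are lower in iCM-Ex and iCM than in every saline array, and Birc2, Birc3 and Bcl2l1 spread widely within groups.

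The anti-death BCL2 genes did not differ from saline in one direction. Bcl2, the founding survival gene of the family, was at 8.10, 9.47 and 8.71 in iCM-Ex hearts, 8.93, 8.92 and 7.64 in iCM hearts and 10.32, 9.68 and 9.83 in saline hearts. As for Cflar, no treated array reached the saline range. The difference was −1.18 ± 0.45 in iCM-Ex (limma adjusted p = 0.244, 95% interval −2.17 to −0.19) and −1.45 ± 0.45 in iCM (adjusted p = 0.101, −2.44 to −0.45). Without the 3 arrays high in other tissues' markers the iCM difference was −2.30. It stayed between −1.54 and −0.85 in iCM-Ex and between −1.66 and −1.02 in iCM whichever array was left out. Bcl2l1, which encodes BCL-XL, was at 10.06, 8.97 and 8.91 in iCM-Ex, 8.52, 12.49 and 10.60 in iCM and 6.85, 8.90 and 9.12 in saline. Its iCM mean was 2.25 ± 0.91 above saline (limma adjusted p = 0.194), 1.27 without iCM replicate 2, the array with muscle and fat markers, and 0.98 with control separation as a covariate. Mcl1 ranged from 11.77 to 12.27 in iCM-Ex, 11.51 to 12.22 in iCM and 12.01 to 12.82 in saline. Bcl2l2, which encodes BCL-w, ranged from 7.58 to 8.49, 8.24 to 8.91 and 7.82 to 8.17 in the same groups, with every iCM array above saline. Their differences from saline lay between −0.46 and 0.47, with limma adjusted p of 0.457 to 0.920.

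Among the pore-forming effectors, Bok was at 5.93, 5.63 and 5.86 in iCM-Ex hearts, 5.38, 5.64 and 5.08 in iCM hearts and 4.70, 5.11 and 5.44 in saline hearts. The iCM-Ex arrays lay above saline, by 0.73 ± 0.29 (limma adjusted p = 0.268), and the iCM arrays overlapped it. Bak1 averaged 6.78 ± 0.29 in iCM-Ex, 6.43 ± 0.40 in iCM and 6.15 ± 0.53 in saline (SD, n = 3 each), within the spread of its arrays. Both effectors were lowest in saline replicate 1.

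The BH3-only genes, which encode the sensors that set off the mitochondrial route, were mostly close to the negative controls, with Bik above them on every array. Bid and Pmaip1 had group means below the mean of the median negative controls in all 3 groups, and Bcl2l11 and Bmf in iCM and saline. The negative controls are no floor, and the size of a difference near them is uncertain. Of 8 genes, 6 had a higher mean than saline in iCM-Ex and 6 in iCM, and 0 passed, while 53.5% and 55.5% of all genes had a higher mean in those comparisons. The median difference was 0.55 in iCM-Ex and 0.25 in iCM, against 0.04 and 0.08 over all genes. Without saline replicate 1 the medians were 0.29 and 0.16, with 5 of 8 higher in each.

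Bik was at 7.29, 6.70 and 6.83 in iCM-Ex hearts, 6.41, 7.18 and 6.53 in iCM hearts and 6.14, 5.97 and 5.97 in saline hearts. Both treated groups lay above saline, by 0.91 ± 0.30 in iCM-Ex (limma adjusted p = 0.189) and 0.68 ± 0.30 in iCM (adjusted p = 0.228). The iCM difference was 0.44 without iCM replicate 2 and 0.19 with the covariate. Hrk, which in mice is best known from neurons, was at 5.21, 4.68 and 5.43 in iCM-Ex, 5.28, 5.52 and 5.19 in iCM and 4.31, 4.47 and 4.55 in saline. It too lay above saline in both, by 0.67 ± 0.28 (adjusted p = 0.287) and 0.89 ± 0.28 (adjusted p = 0.106), from a saline mean below the negative controls. Bad, which growth factor signals inactivate by phosphorylation, was at 6.15, 6.85 and 6.43 in iCM-Ex, 6.67, 6.16 and 6.21 in iCM and 5.22, 5.35 and 6.24 in saline. Its differences from saline were 0.87 ± 0.35 (adjusted p = 0.267) and 0.74 ± 0.35 (adjusted p = 0.262), with saline replicate 3 inside the treated range. With the covariate the iCM-Ex difference was 0.57.

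Bid, which links death receptors to mitochondria, went the other way in iCM-Ex hearts. It was at 3.49, 3.59 and 3.55 there, 4.89, 3.90 and 4.00 in iCM hearts and 4.45, 4.22 and 4.02 in saline hearts. The iCM-Ex arrays lay below both other groups, by −0.72 ± 0.31 against iCM (limma adjusted p = 0.318) and −0.68 ± 0.31 against saline (adjusted p = 0.331), all at signals below the negative controls. Against iCM the difference was −0.41 without iCM replicate 1, −0.46 without the 3 arrays and −1.13 with the covariate. Bbc3 and Pmaip1, the p53 targets that encode PUMA and NOXA, Bcl2l11, which encodes BIM, and Bmf had overlapping groups. Their differences from saline were between −0.20 and 0.57 in iCM-Ex and between −0.55 and 0.27 in iCM.

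**Figure D3:**
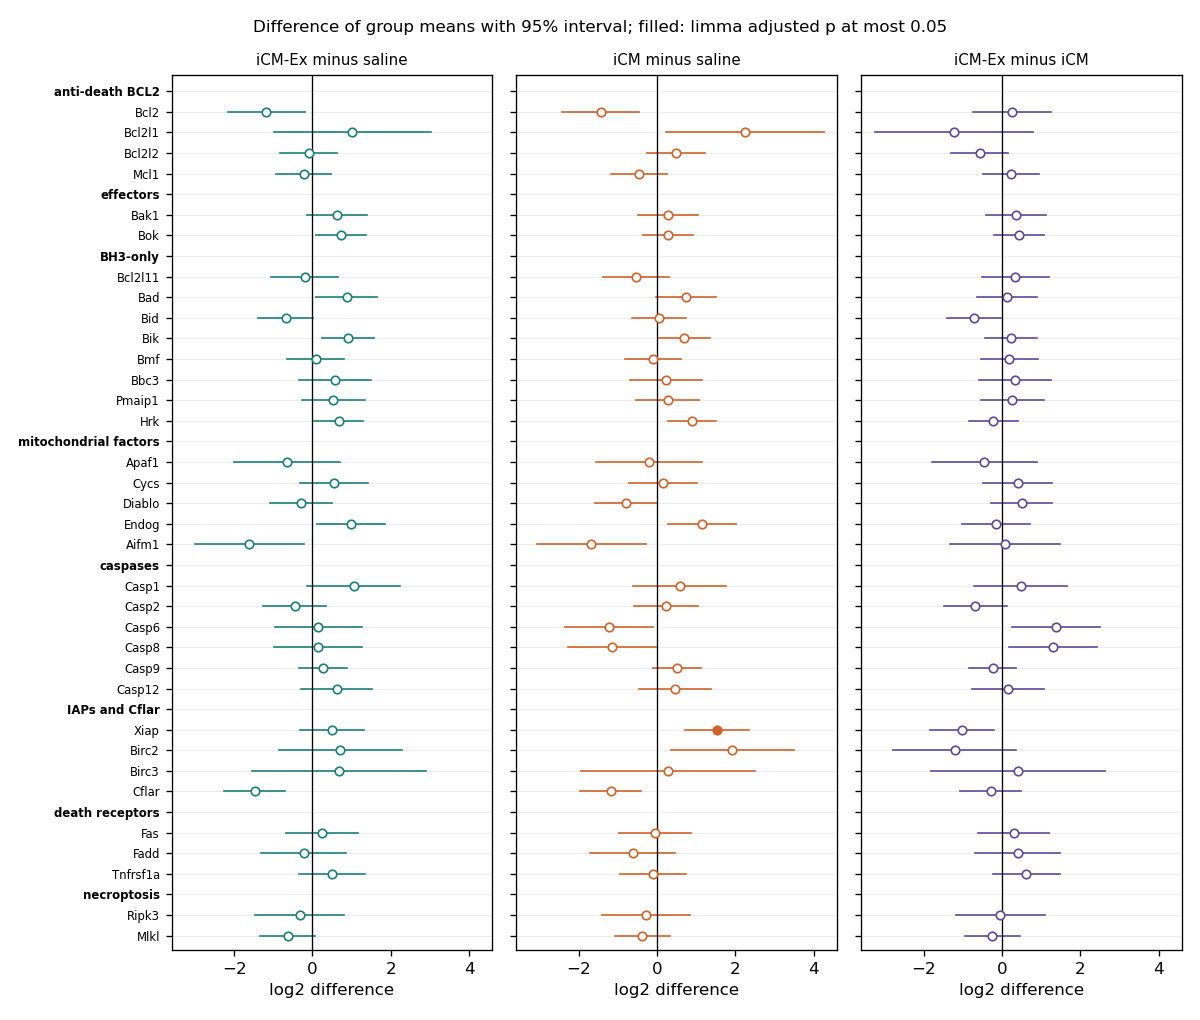
Difference of mean log2 signal (horizontal axes) for each of the 34 genes in iCM-Ex minus saline, iCM minus saline and iCM-Ex minus iCM, with 95% intervals from the limma fit. The single filled point, Xiap in iCM minus saline, passed the threshold. Cflar, Bcl2 and Aifm1 lie left of 0 in both comparisons with saline, and Endog, Bik and Hrk right of it.

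Of the mitochondrial factors, Aifm1 and Endog stood furthest from saline, in opposite directions. Aifm1 encodes the apoptosis-inducing factor of the mitochondrial intermembrane space. It was at 11.28, 11.29 and 10.78 in iCM-Ex hearts, 10.06, 11.38 and 11.69 in iCM hearts and 13.87, 13.07 and 11.24 in saline hearts. The difference was −1.61 ± 0.63 in iCM-Ex (limma adjusted p = 0.259) and −1.69 ± 0.63 in iCM (adjusted p = 0.162). One saline array lay in the treated range, and without it, saline replicate 3, the differences were −2.35 (adjusted p = 0.069) and −2.43 (adjusted p = 0.043). Without saline replicate 1 they were −1.04 and −1.12, and the iCM difference was also −1.04 without the 3 arrays. Endog, which encodes a mitochondrial nuclease, was at 4.80, 5.56 and 5.51 in iCM-Ex, 5.03, 5.99 and 5.34 in iCM and 4.65, 4.62 and 3.61 in saline. Every treated array lay above saline, by 0.99 ± 0.39 (adjusted p = 0.264) and 1.16 ± 0.39 (adjusted p = 0.126), from a saline mean of 4.30 below the negative controls. The iCM-Ex difference was 0.65 without saline replicate 3, and the iCM difference 0.73 with the covariate.

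Diablo, the gene of SMAC, was at 9.69, 10.69 and 9.97 in iCM-Ex hearts, 9.03, 9.69 and 10.12 in iCM hearts and 10.47, 10.38 and 10.35 in saline hearts. The iCM arrays lay below saline, by −0.79 ± 0.36 (limma adjusted p = 0.243), and iCM-Ex replicate 2 lay above it. The iCM difference was −0.50 without iCM replicate 1 and −0.28 without the 3 arrays. Cycs ranged from 18.84 to 19.58 in iCM-Ex, 18.12 to 19.58 in iCM and 18.32 to 19.01 in saline, close to the highest value on any array of 19.93. Apaf1, the scaffold of the apoptosome, averaged 6.32 ± 0.82 in iCM-Ex, 6.77 ± 0.95 in iCM and 6.98 ± 0.94 in saline (SD, n = 3 each). Both genes had overlapping groups.

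Among the caspases, Casp6 and Casp8 were lower in iCM than in both other groups' means, and 0 of 6 genes passed. Casp8, the initiator of the death receptor route, was at 11.79, 13.12 and 12.93 in iCM-Ex hearts, 11.83, 11.29 and 10.82 in iCM hearts and 11.86, 12.06 and 13.50 in saline hearts. The iCM difference from saline was −1.16 ± 0.51 (limma adjusted p = 0.230), with no overlap, although the nearest arrays were at 11.83 and 11.86. It was −0.64 without saline replicate 3 and −0.67 with the covariate. The iCM-Ex difference from iCM was 1.30 ± 0.51 (adjusted p = 0.261), and 0.48 with the covariate (adjusted p = 0.954). Casp6, an executioner caspase, was at 8.16, 8.41 and 8.07 in iCM-Ex, 7.78, 5.55 and 7.17 in iCM and 7.56, 8.29 and 8.33 in saline. It differed by 1.38 ± 0.50 between iCM-Ex and iCM (adjusted p = 0.230) and by −1.23 ± 0.50 between iCM and saline (adjusted p = 0.201). Its lowest array was iCM replicate 2, without which these values were 0.74 and −0.58. With control separation as a covariate the iCM-Ex difference from iCM turned to −0.60 (adjusted p = 0.886) and the iCM difference from saline was −0.05. That fit cannot separate the covariate from the treatment.

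The other 4 caspase genes had overlapping groups. Casp1, the inflammatory caspase that matures interleukin-1 beta, averaged 9.22 ± 0.98 in iCM-Ex, 8.74 ± 0.67 in iCM and 8.17 ± 0.63 in saline (SD, n = 3 each). Its difference from saline was 1.05 ± 0.54 in iCM-Ex (limma adjusted p = 0.391) and 0.57 ± 0.54 in iCM (adjusted p = 0.591). Casp12, known in mice for its place at the endoplasmic reticulum, ranged from 9.13 to 9.42 in iCM-Ex, 8.66 to 9.43 in iCM and 7.73 to 9.23 in saline. Casp2 ranged from 6.31 to 7.54, 7.32 to 7.94 and 7.21 to 7.81 in these groups. Casp9, the caspase of the apoptosome, had a mean below the negative controls in each group.

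Death receptor and necroptosis genes showed no called difference. Tnfrsf1a, the main TNF receptor, averaged 10.70 ± 0.34 in iCM-Ex, 10.07 ± 0.54 in iCM and 10.19 ± 0.56 in saline (SD, n = 3 each). Fas averaged 7.72 ± 0.24, 7.42 ± 0.51 and 7.47 ± 0.77, and the adaptor gene Fadd 7.37 ± 1.03, 6.96 ± 0.30 and 7.59 ± 0.54 in the same groups. Mlkl, which encodes the membrane-opening protein of necroptosis, averaged 8.83 ± 0.29 in iCM-Ex, 9.07 ± 0.26 in iCM and 9.45 ± 0.46 in saline (SD, n = 3 each). Every iCM-Ex array lay below every saline array, and the difference was −0.63 ± 0.32 (limma adjusted p = 0.385), with an interval of −1.33 to 0.07. It was −0.36 without saline replicate 3. Ripk3 ranged from 5.07 to 5.56 in iCM-Ex, 4.73 to 5.81 in iCM and 4.44 to 6.54 in saline, so its saline arrays spanned both treated groups.

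Pro-death and anti-death genes were compared as groups without a test, since the genes were chosen. Pro-death genes had a mean signal of 7.45, 7.73 and 7.61 in iCM-Ex hearts, 7.33, 7.53 and 7.34 in iCM hearts and 7.09, 7.53 and 7.66 in saline hearts. Anti-death genes had 10.52, 9.92 and 9.34 in iCM-Ex, 10.08, 11.05 and 9.93 in iCM and 9.47, 10.07 and 10.27 in saline. The groups overlapped in both. Of the 26 pro-death genes 17 had a higher mean than saline in iCM-Ex and 14 in iCM, and of the 8 anti-death genes 4 and 5. The shift of pro-death minus anti-death genes was 0.18 for iCM-Ex minus saline, −0.45 for iCM minus saline and 0.63 for iCM-Ex minus iCM, beside an SD of 0.49 between arrays of a group. Over the 3 iCM-Ex arrays the pro-death minus anti-death value alone ran from −3.07 to −1.73, wider than the range of −2.61 to −2.38 in saline. Without iCM-Ex replicate 1, the array with high Birc2 and Birc3, the shift was 0.55 against saline and 0.998 against iCM. Without the 3 arrays with other tissues' markers the 3 shifts were −0.12, −0.08 and −0.04.

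**Figure D4:**
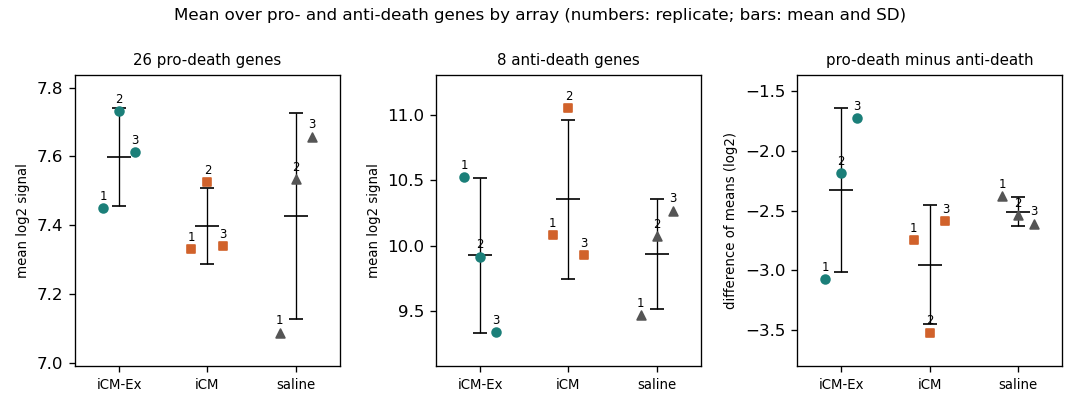
Mean log2 signal (vertical axes) of the 26 pro-death genes, of the 8 anti-death genes, and their difference, on each array, with replicate numbers and the group mean and SD as bars (n = 3). The groups overlap in each panel, iCM replicate 2 has the highest anti-death mean at 11.05, and saline replicate 1 the lowest pro-death mean at 7.09.

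Saline arrays were not alike in these genes. Saline replicate 1 was the lowest of the 9 arrays for 13 of the 34 genes, and 23% of all genes were lowest there. Its median gene signal was 5.44, and that of the other arrays 5.64 to 5.70. Without it, 17 of 34 genes had a higher mean than saline in iCM-Ex and 16 in iCM, against 21 and 19 with it. Arrays did not overlap for 8 of 34 genes in iCM-Ex against saline (23.5%, and 21.7% of all genes), 10 in iCM against saline (29.4%, and 24%) and 3 in iCM-Ex against iCM (8.82%, and 20.2%). These shares lie near or below those of all genes.

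A second list held 45 other cell death genes, of which 42 were measured, and the rest were not analysed here. Of the 42 genes, 1 rose in iCM against saline (1.34% of all genes) and 0 fell (2.33%), and 0 passed in iCM-Ex against saline (0.349%) or against iCM (1.07%). At an unadjusted p of 0.05, 10 of 42 passed in iCM-Ex against saline (15.2% of all genes), 7 in iCM against saline (20.5%) and 6 in iCM-Ex against iCM (14.5%). The median difference of the list was −0.04 in iCM-Ex minus saline and 0.09 in iCM minus saline, and 0.04 and 0.08 over all genes. The gene that rose was Zbp1, which encodes the nucleic acid sensor that can engage RIPK3. It was at 5.86, 6.22 and 5.54 in iCM-Ex hearts, 6.74, 5.90 and 6.69 in iCM hearts and 4.17, 3.56 and 5.01 in saline hearts. Zbp1 rose by 2.20 ± 0.41 in iCM (limma adjusted p = 0.021), from a saline mean below the negative controls, and differed from saline by 1.63 ± 0.41 in iCM-Ex (adjusted p = 0.109). The iCM call was lost without saline replicate 2 (1.85, adjusted p = 0.0818) or iCM replicate 3 (2.07, adjusted p = 0.053), and without the 3 arrays high in lung, muscle or fat markers (2.45, adjusted p = 0.179).

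Bcl2a1d belongs to the Bcl2a1 cluster, anti-death BCL2 relatives known from white blood cells. It was at 9.41, 8.75 and 8.59 in iCM-Ex hearts, 7.13, 6.79 and 6.48 in iCM hearts and 6.01, 5.73 and 7.64 in saline hearts. The iCM-Ex arrays lay above both other groups, by 2.12 ± 0.48 against iCM (limma adjusted p = 0.068) and 2.46 ± 0.48 against saline (adjusted p = 0.0684), and neither passed. Both passed under quantile normalisation (adjusted p = 0.0486 and 0.0484) and when saline replicate 3 was left out (0.0314 and 0.0135), and the difference from iCM passed among genes above the median (0.0452). Without the 3 arrays high in other tissues' markers the adjusted p was 0.392 and 0.374, and with the covariate 0.793 and 0.135. Its near-identical copies Bcl2a1a and Bcl2a1b, named after their values were seen, were 2.22 ± 0.63 and 2.19 ± 0.71 above saline in iCM-Ex (adjusted p = 0.143 and 0.186), and probe sets may not tell the copies apart. Of 6 macrophage markers 0 passed against saline in either treatment, and of 6 neutrophil markers 0 passed in iCM-Ex and 1 in iCM. Of all genes, 0.349% passed in iCM-Ex and 3.67% in iCM. All iCM-Ex arrays lay above saline for 5 of 6 neutrophil and 0 of 6 macrophage markers, where 21.7% of all genes did not overlap. Against iCM they lay above for 1 of 6 neutrophil and 4 of 6 macrophage markers, where 20.2% of all genes did not overlap. The level of 6 macrophage markers averaged 11.12 ± 0.17 in iCM-Ex (SD, n = 3), and ran from 8.61 to 10.59 in iCM and from 8.41 to 11.40 in saline. The mean of 6 neutrophil markers was 6.16 to 7.13, 5.93 to 7.25 and 4.31 to 5.84 in these groups, and the part of these cells in the Bcl2a1 values was not tested. Cidea, a lipid droplet gene of fat also studied in apoptosis, was at 7.35, 6.74 and 7.09 in iCM-Ex and 7.09, 9.46 and 9.26 in iCM, a difference of −1.55 ± 0.54 (adjusted p = 0.208). It passed without iCM replicate 1 (−2.30, adjusted p = 0.015) and was −0.05 with the covariate (adjusted p = 0.995). The mean of 6 fat markers was 7.36, 11.18 and 6.52 on the same iCM arrays.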

How the data were processed

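RNA of the peri-infarct region of mouse hearts was measured on 9 Clariom S arrays, labelled as biological replicates; whether hearts were pooled is not given in the sources used here. Each probe set has a log2 signal per array, as deposited by the authors. Per the submitters' processing notes the software was Affymetrix Expression Console. How it corrected background and normalised, and in which version, is not given in the sources used here. That the scale is log2 was judged from the range of 2.25 to 19.93. Arrays give no counts, so the number of arrays limits precision. Of 28846 rows, 6640 were controls and 19572 had 1 gene symbol. All 19572 matched the gene table by Entrez identifier. The brightest row per gene was kept, which left 19505 genes. No filter or further normalisation was applied.

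All arrays entered 1 fit in limma 3.58.1 (R 4.3.3) with a mean per group and empirical Bayes moderation (residual degrees of freedom 6, prior 4.23), tested on simulated data first. Contrasts were iCM-Ex minus saline, iCM minus saline and iCM-Ex minus iCM, with p-values adjusted over all genes. An exact permutation test of 3 against 3 arrays cannot give a p below 0.1.

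The members, lists and alternatives were chosen with earlier results of these data known. Values on every array are given for members past the threshold or with an unadjusted p under 0.05 in a contrast, and the others by range or mean. Of the second list, genes past the threshold were named, and otherwise the 2 with the smallest p in a contrast. Promoters are RefSeq's. Same-numbered replicates were checked for pairing, and the correlation of their deviations from group means was −0.257 to 0.068. Differently numbered replicates were not compared, so the check cannot decide whether the numbers pair the samples.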

Additional observations from a re-analysis of the deposited data

How the results depend on the processing

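With 3 arrays per group, precision is limited by the arrays. The count of genes past the threshold in iCM minus saline was 716, with 279 in a fit of the 2 groups compared only, 338 with the replicate block, 33 with control separation as a covariate and 6 once the 3 arrays high in lung, muscle or fat markers were left out (iCM replicate 3 then stood alone and was assumed to vary like the other groups). In iCM-Ex minus saline it was 68, with 1, 0, 5 and 0 under the same alternatives and 17 with trended, robust moderation. In iCM-Ex minus iCM it was 208, with 13, 18, 0 and 0, and 352 among genes above the median. Leaving out an array gave 126 to 803, 0 to 163 and 0 to 401 genes. Of the 34 cell death genes, 1 passed in iCM minus saline, and 0 passed with all rows but controls (Xiap adjusted p = 0.051), with the 2 groups only (0.109), with trended moderation (0.0784), with the replicate block (0.0936), with the covariate (0.228) and without the 3 arrays (0.477). Leaving out an array gave 0 or 1, the 1 being Aifm1 without saline replicate 3. Zbp1 of the second list missed the threshold in iCM minus saline with the 2 groups only (0.0589) and the covariate (0.0691). No member passed in the other contrasts under any alternative. The pro-death minus anti-death shift of iCM-Ex minus iCM was 0.63, and −0.15 with the covariate and −0.04 without the 3 arrays. Leaving out an array gave −0.63 to −0.16 for iCM minus saline, −0.12 to 0.55 for iCM-Ex minus saline and 0.33 to 0.998 for iCM-Ex minus iCM. The counts of members with a higher mean stayed within 1.5 times of their values, which is a wide bound. With 1 array left out, the count was 16 to 22 in iCM minus saline. It was 17 to 23 in iCM-Ex minus saline and 17 to 24 in iCM-Ex minus iCM. Among genes above the median fewer members were tested, and the counts were 13, 15 and 17 in the same order. Where a fit used fewer arrays, the change comes with fewer degrees of freedom; other causes were not tested. The labels do not say that the replicate numbers pair the samples, and the block is given as a check.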
